A study of Mus musculus with 4 samples.

Results

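Adventitial fibroblasts of the late-gestation mouse lung were picked out of 4 single-cell RNA libraries by the genes they expressed. A barcode was a member when it held at least 500 genes and at most 20% mitochondrial UMIs (unique molecular identifiers, 1 per captured transcript). It also had at least 0.5% of its UMIs from Col1a1, Col1a2 and Col3a1, and none of Epcam, Cdh5, Ptprc or Upk3b, which mark epithelium, endothelium, leukocytes and mesothelium. Finally it held UMIs of at least 3 of the 5 marker genes Pi16, Agtr2, Tnxb, Mfap5 and Penk. The rule found 201 members among 27815 barcodes: 43 and 39 in Dnmt1 CKO replicates 1 and 2, and 50 and 69 in wild type replicates 1 and 2. Both groups were lungs of E18.5 embryos, close to birth. The Dnmt1 CKO embryos carried Tbx4-rtTA, Tet-O-Cre and a Dnmt1 allele pair written D/D, and the others were labelled wild type. Tbx4-rtTA is a doxycycline-dependent activator made where Tbx4 is active, which in the lung is the mesenchyme, and Tet-O-Cre is the recombinase it switches on. The labels give no doxycycline schedule and do not say whether the wild type embryos carried either transgene. Whether each library came from a separate embryo is not stated, and p-values here reflect only how far the libraries of a group lie apart.

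Adventitial fibroblasts lie in the connective tissue cuffs around large vessels and airways, where they make collagen, elastic-fibre proteins and proteoglycans and signal to immune cells. Dnmt1 copies CpG methylation onto the new DNA strand at each cell division. Without it methylation thins out as cells divide, and genes that methylation normally keeps silent in somatic tissue, many of them germ cell genes, are known to become active.

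The members held 491492 and 282397 UMIs in the Dnmt1 CKO libraries and 393195 and 698479 UMIs in the wild type libraries, with medians per cell of 9772, 6679, 7473 and 9608. Xist, the RNA that coats the inactive X chromosome, and Y-linked transcripts showed Dnmt1 CKO replicate 1 and wild type replicate 2 to carry a Y chromosome, and the other libraries not to. Any pair of libraries shared 8 to 16 barcodes, 0 of them members. Scrublet, a doublet caller, marked 1.39% to 4.20% of the quality-passing barcodes as doublets and 0 of the members. More than 1% of a cell's UMIs were haemoglobin in 4 and 1 Dnmt1 CKO members, and in 0 members of either wild type library. The haemoglobin sum in members was 10141 and 3279 CPM (counts per 1000000 UMIs of the summed cells) in Dnmt1 CKO, against 412 and 464 CPM in wild type.

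The name was checked against 28 further markers of adventitial fibroblasts that the rule did not use, such as Cd34, Dpt, Clec3b, Serpinf1 and Igfbp6. They summed to 6704 and 8134 CPM in Dnmt1 CKO members and to 7220 and 7595 CPM in wild type members. In the gated mesenchymal barcodes with at most 2 of the 5 markers, called the other gated cells here, the same sum was 2093 and 2641 CPM in Dnmt1 CKO and 2470 and 2459 CPM in wild type. The label therefore held in all 4 libraries, as a description of cells chosen by expression. At the edge of the rule the change was gradual. Cells with 3 rule genes held 5967 and 8035 CPM of the further markers in Dnmt1 CKO and 5881 and 7024 CPM in wild type, whereas cells with 2 held 4161 and 4600 CPM in Dnmt1 CKO and 4088 and 4816 CPM in wild type. Markers of other cells differed in how much of them members held. The 6 neural markers summed to at most 10.6 CPM and the 9 immune markers to at most 102.7 CPM in any library. Smooth muscle markers summed to 1546 and 914 CPM in Dnmt1 CKO members and 956 and 753 CPM in wild type members, below the other gated cells of each library (2435 to 3332 CPM). Myofibroblast markers summed to 991 and 1416 CPM in Dnmt1 CKO and 743 and 913 CPM in wild type, above the other gated cells in Dnmt1 CKO (863 and 1125 CPM) and below them in wild type (1769 and 1530 CPM). Pericyte markers, at 627 and 517 CPM in Dnmt1 CKO and 646 and 833 CPM in wild type, and endothelial markers, at 189 and 177 CPM in Dnmt1 CKO and 181 and 152 CPM in wild type, were above the other gated cells of every library. Chondrocyte markers stood at 65.1 and 28.3 CPM in Dnmt1 CKO members and 45.8 and 60.1 CPM in wild type members. The other gated cells held 9.70 to 14.5 CPM of them. Mesothelial markers stood at 40.7 and 60.2 CPM in Dnmt1 CKO members and 142 and 43.0 CPM in wild type members. Both sums were also above the other gated cells of every library. The part of these markers of other cells in the results below was not tested. Epithelial markers stood at 262 and 960 CPM in Dnmt1 CKO and 1053 and 358 CPM in wild type. Most of that was Sftpc, the surfactant protein C transcript of alveolar type 2 cells (218 and 715 CPM in Dnmt1 CKO, 743 and 269 CPM in wild type). The epithelial sum in the other gated cells was 377 and 1150 CPM in Dnmt1 CKO and 477 and 414 CPM in wild type, lower than in members in wild type replicate 1 only.

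**Figure D1:**
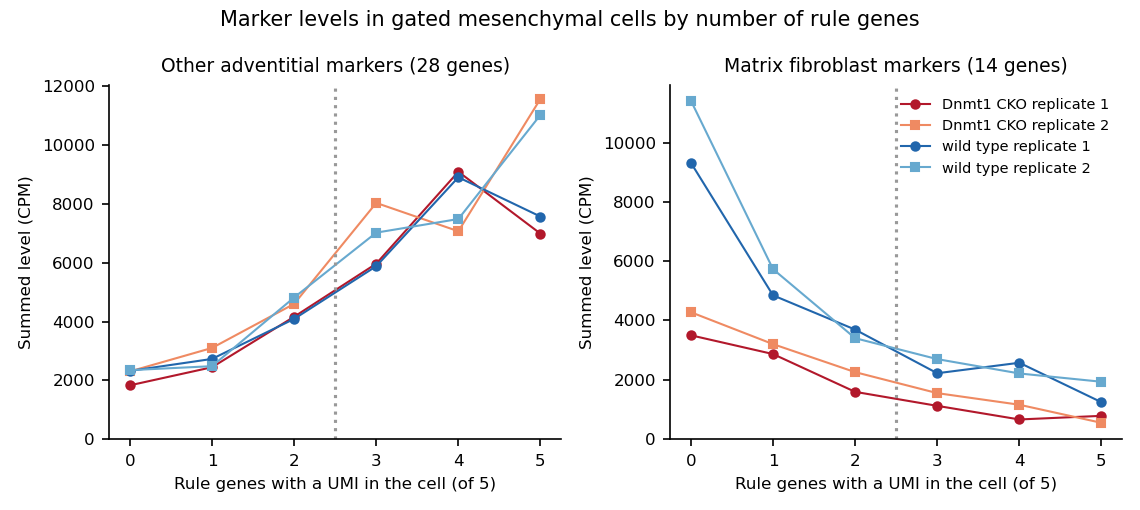
Summed level in CPM (vertical axes) of 28 adventitial markers outside the rule (left) and 14 matrix fibroblast markers (right), against the number of the 5 rule genes found in a gated mesenchymal cell (horizontal axes). Each line is a library, and the dotted line marks the limit of 3 rule genes. The adventitial sum climbed from 0 to 3 rule genes in all 4 libraries, and the matrix fibroblast sum was lower in both Dnmt1 CKO libraries at every number of rule genes.

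The 5 genes of the rule are given as a description, since they chose the members. Mfap5, a microfibril-associated glycoprotein, stood at 816 and 1013 CPM in Dnmt1 CKO and 857 and 740 CPM in wild type. Agtr2, the type 2 receptor of angiotensin II, stood at 370 and 255 CPM in Dnmt1 CKO and 369 and 314 CPM in wild type, while the other gated cells held 9.22 and 7.69 CPM in Dnmt1 CKO and 6.59 and 12.02 CPM in wild type. Penk, the precursor of the enkephalin opioid peptides, was at 132 and 443 CPM in Dnmt1 CKO and 298 and 435 CPM in wild type. Tnxb, the matrix glycoprotein tenascin-X, was at 205 and 223 CPM in Dnmt1 CKO and 198 and 126 CPM in wild type. Pi16, a secreted peptidase inhibitor, was at 65.1 and 273 CPM in Dnmt1 CKO and 122 and 125 CPM in wild type. Pi16 and Penk were low in Dnmt1 CKO replicate 1 only, so the groups overlapped for both genes.

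Members varied in which rule genes they held. Pi16 had a UMI in 10 of 43 and 23 of 39 Dnmt1 CKO members and in 27 of 50 and 38 of 69 wild type members. Agtr2 and Mfap5 were found together in 36 and 24 Dnmt1 CKO members and in 43 and 59 wild type members. Mfap5 and Penk were found together in 20 and 30 Dnmt1 CKO members and in 33 and 49 wild type members, so the commoner of these pairs differed in Dnmt1 CKO replicate 2. Cd34, a sialomucin of vascular and fibroblast progenitor cells, was higher in Pi16-positive than in Pi16-negative members of 3 libraries: 323 against 151 CPM in Dnmt1 CKO replicate 2, 307 against 130 CPM in wild type replicate 1, and 319 against 181 CPM in wild type replicate 2. In Dnmt1 CKO replicate 1 it was 185 against 188 CPM. Dpt, the matrix protein dermatopontin, ran the other way in all 4 libraries, at 475 against 923 and 295 against 509 CPM in Dnmt1 CKO and 302 against 655 and 334 against 445 CPM in wild type. Dpp4, often paired with Pi16 in adult adventitial fibroblasts, had 1 UMI among all 201 members. These splits were made on members' own expression and carry no test.

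Outside the rule, some genes set members apart from other gated cells by their level in wild type, and a few of these are described. Igfbp2, an insulin-like growth factor binding protein, had a level 13.4 and 19.5 times that of other gated cells in Dnmt1 CKO and 36.1 and 87.6 times in wild type. Only some members held an Igfbp2 UMI: 10 of 43 and 11 of 39 in Dnmt1 CKO, and 15 of 50 and 21 of 69 in wild type. Serpinf1, an antiangiogenic serpin, had ratios of 12.4 and 13.7 in Dnmt1 CKO and 28.03 and 28.9 in wild type. Fbln2, the elastic-fibre protein fibulin-2, had ratios of 11.2 and 26.8 in Dnmt1 CKO and 19.6 and 50.6 in wild type. It had a UMI in 21 and 21 Dnmt1 CKO members and in 22 and 24 wild type members. The transcription factor Twist2 had ratios of 4.80 and 11.98 in Dnmt1 CKO and 25.4 and 24.8 in wild type. Ebf1, another transcription factor, had ratios of 25.6 and 8.68 in Dnmt1 CKO and 14.8 and 16.7 in wild type. Dlk1, an imprinted ligand-like protein of fetal mesenchyme, reached 2029 and 1852 CPM in Dnmt1 CKO members and 1587 and 1495 CPM in wild type members. Its ratio to other gated cells was 4.15 and 4.13 in Dnmt1 CKO and 12.1 and 11.6 in wild type. Ptn, the growth factor pleiotrophin, had ratios of 5.003 and 3.29 in Dnmt1 CKO and 11.5 and 12.7 in wild type.

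Members made up 2.78% (exact binomial 95% interval 2.02% to 3.72%) and 2.41% (1.72% to 3.28%) of the gated mesenchymal barcodes in Dnmt1 CKO, and 3.73% (2.78% to 4.88%) and 4.68% (3.66% to 5.89%) in wild type. The Dnmt1 CKO shares were the lower ones, but the intervals overlapped in every pairing of the groups except Dnmt1 CKO replicate 2 with wild type replicate 2. With at least 4 rule genes the shares were 0.711% and 0.926% in Dnmt1 CKO and 1.79% and 1.97% in wild type. With at least 2 they were 6.98% and 7.97% in Dnmt1 CKO and 7.90% and 7.80% in wild type, and the groups overlapped. Such a share moves with the level of the rule genes as well as with the number of cells, and the intervals cover counting error only.

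Dnmt1 itself was scarce in members. It had 4 and 2 UMIs in Dnmt1 CKO members and 10 and 14 UMIs in wild type members, which is 8.14 and 7.08 CPM in Dnmt1 CKO against 25.4 and 20.04 CPM in wild type. The groups did not overlap, and pooled over libraries the Dnmt1 CKO level was 0.353 times that in wild type (exact 95% counting interval 0.118 to 0.886). Dnmt1 (ENSMUSG00000004099.16, chromosome 9, 20907209 to 20959888, minus strand, GRCm38.p6) did not pass the low-count filter, so it has no test of its own in members. In the other gated cells it was at 8.70 and 11.4 CPM in Dnmt1 CKO and 26.6 and 26.9 CPM in wild type, which passed the test at -1.41 on the log2 scale (adjusted p = 0.00602 by edgeR). The change in members differed from that change by -0.04 on the log2 scale (SE 0.589, edgeR adjusted p = 1), too imprecise to show that they were alike. The deleted exons are not named in the labels, and a 3′ tag outside them would still be counted.

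Across the transcriptome, few genes in members passed the test. The members' UMIs were summed per library and compared with the quasi-likelihood test of edgeR, and a gene was called when its p-value, adjusted by the Benjamini-Hochberg method over all genes tested, was under 0.05. Of 5914 genes tested, 18 were called (0.304%), 17 of them higher in Dnmt1 CKO (0.287%) and 1 lower, and 560 had an unadjusted p under 0.05 (9.47%). Dnmt1 CKO values lay above both wild type values for 20.2% of tested genes and below both for 19.4%. The median log2 fold change over all tested genes was -0.0025. The count rested on single libraries: edgeR called 26 genes without Dnmt1 CKO replicate 1, 266 without Dnmt1 CKO replicate 2, 82 without wild type replicate 1, and 0 without wild type replicate 2, where 270 genes had an unadjusted p under 0.05. DESeq2 called 22 genes over all 4 libraries.

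**Figure D2:**
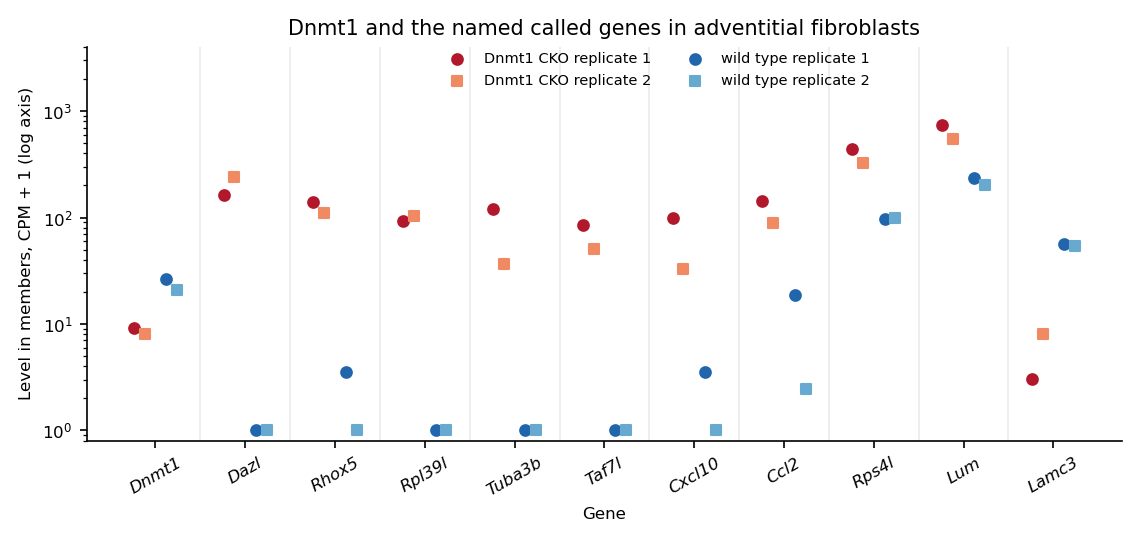
Level in members, as CPM plus 1 on a log axis, of Dnmt1 and of the 10 named genes that passed the test, with 1 point for each of the 2 Dnmt1 CKO and 2 wild type libraries. Dazl, Rpl39l, Tuba3b and Taf7l had 0 UMIs in both wild type libraries, and Dnmt1 and Lamc3 were lower in both Dnmt1 CKO libraries.

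Among the genes called upward were 4 germ cell genes. Of a list of 34 germ cell genes 6 passed the low-count filter, 5 of them with 0 UMIs in both wild type libraries. These passed through their level in Dnmt1 CKO, so nothing is read from the number called. Dazl, an RNA-binding protein that germ cells need, had 80 and 67 UMIs in Dnmt1 CKO members (163 and 237 CPM) and 0 in both wild type libraries. It was spread over 13 and 10 Dnmt1 CKO members. The level was at least 69.1-fold higher, taking 3 UMIs over the wild type group as the floor (fitted log2 fold change 5.55, SE 0.435, edgeR adjusted p = 0.00513). DESeq2 fitted 9.14 for the same change, with a larger SE of 1.51. Rpl39l, a testis paralogue of a large-subunit ribosomal protein, had 45 and 29 UMIs in Dnmt1 CKO and 0 in both wild type libraries, at least 34.8-fold higher (adjusted p = 0.00552 by edgeR). Taf7l, a germ cell paralogue of a general transcription factor subunit, had 41 and 14 UMIs in Dnmt1 CKO and 0 in both wild type libraries, at least 25.9-fold higher (edgeR adjusted p = 0.0158). Tuba3b, a testis alpha-tubulin, had 58 and 10 UMIs in Dnmt1 CKO and 0 in both wild type libraries (edgeR adjusted p = 0.0448), but 41 of the 58 and 7 of the 10 came from a single cell of each library. Rhox5, an X-linked homeobox gene of the reproductive tract, had 68 and 31 UMIs in 17 and 10 Dnmt1 CKO members, against 1 and 0 UMIs in wild type (log2 fold change 4.62, SE 0.435, edgeR adjusted p = 0.00513). Rpl39l and Tuba3b have close paralogues, so the split of reads between copies is uncertain. All 5 calls were lost without wild type replicate 2. When Dnmt1 CKO replicate 1 was left out, edgeR called 2 of the 4 germ cell genes, Dazl and Rpl39l, as Taf7l and Tuba3b fell below the low-count filter. With at least 4 rule genes it called 0 of the 4, and the call of Tuba3b was lost with equal cells per library. With the rule on thinned cells Tuba3b fell below the low-count filter.

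The other members of the germ cell list were sparse. Tex101, a germ cell surface protein, had 58 and 4 UMIs in Dnmt1 CKO and 0 in both wild type libraries, and did not pass the low-count filter. Slc25a31, a testis ADP/ATP carrier, had 17 and 8 UMIs in Dnmt1 CKO against 0 and 0 in wild type (log2 fold change 3.07, edgeR adjusted p = 0.0654), and DESeq2 called it (adjusted p = 0.0487). Tex19.1 had 14 and 7 UMIs in Dnmt1 CKO against 0 and 1 in wild type (2.58, adjusted p = 0.106 by edgeR). Sycp3, a part of the synaptonemal complex of meiosis, had 0 and 0 UMIs in Dnmt1 CKO and 0 and 1 in wild type, Ddx4 had 5 and 1 in Dnmt1 CKO and 0 and 0 in wild type, and Mael had 1 and 0 in Dnmt1 CKO and 0 and 0 in wild type. Of the 34 genes, 24 and 19 had a UMI in the Dnmt1 CKO members and 0 and 5 in the wild type members.

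The start regions of the called germ cell genes and of Rhox5 are shown because CpG, the dinucleotide that Dnmt1 methylates, is what the mutation acts on. Each runs from 250 bases before to 50 bases after the annotated start in RefSeq on GRCm38.p6, 5′ to 3′ on the gene's own strand, with every CG in capitals.
Dazl, chr17:50293571-50293870, minus strand: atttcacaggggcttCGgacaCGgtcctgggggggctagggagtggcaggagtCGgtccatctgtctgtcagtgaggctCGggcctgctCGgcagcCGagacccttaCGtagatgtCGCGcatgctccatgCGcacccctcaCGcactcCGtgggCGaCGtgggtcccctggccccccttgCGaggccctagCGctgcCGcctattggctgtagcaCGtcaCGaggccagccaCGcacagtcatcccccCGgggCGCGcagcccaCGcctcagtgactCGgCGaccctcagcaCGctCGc
Rpl39l, chr16:10169978-10170277, plus strand: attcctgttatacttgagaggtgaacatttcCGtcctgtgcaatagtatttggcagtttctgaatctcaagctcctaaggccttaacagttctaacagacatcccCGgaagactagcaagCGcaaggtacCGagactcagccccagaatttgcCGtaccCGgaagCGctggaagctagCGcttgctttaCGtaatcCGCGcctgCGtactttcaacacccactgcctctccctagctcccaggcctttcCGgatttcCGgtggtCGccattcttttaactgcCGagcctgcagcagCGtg
Taf7l, chrX:134476441-134476740, minus strand: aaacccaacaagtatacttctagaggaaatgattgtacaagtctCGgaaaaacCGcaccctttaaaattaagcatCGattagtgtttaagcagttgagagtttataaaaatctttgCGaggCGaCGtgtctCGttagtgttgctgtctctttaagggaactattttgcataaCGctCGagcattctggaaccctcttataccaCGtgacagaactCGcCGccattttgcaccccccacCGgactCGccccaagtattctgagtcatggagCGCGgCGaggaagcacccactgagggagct
Tuba3b, chr6:145615713-145616012, plus strand: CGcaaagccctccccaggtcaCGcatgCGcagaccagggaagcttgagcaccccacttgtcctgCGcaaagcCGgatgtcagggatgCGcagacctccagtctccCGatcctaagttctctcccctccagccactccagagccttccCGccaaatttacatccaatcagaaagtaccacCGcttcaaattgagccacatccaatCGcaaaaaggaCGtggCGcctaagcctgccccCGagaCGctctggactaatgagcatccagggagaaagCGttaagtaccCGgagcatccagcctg
Rhox5, chrX:37754358-37754657, plus strand: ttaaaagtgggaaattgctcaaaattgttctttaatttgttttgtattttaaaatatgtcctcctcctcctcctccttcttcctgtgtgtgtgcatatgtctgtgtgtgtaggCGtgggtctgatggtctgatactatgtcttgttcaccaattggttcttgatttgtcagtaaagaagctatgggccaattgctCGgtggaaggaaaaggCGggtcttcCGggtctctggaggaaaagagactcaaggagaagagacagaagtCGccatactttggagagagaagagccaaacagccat
Dazl held 28 CG in 300 bases, a number that 14.2% of 32851 RefSeq start regions reached or passed, where the median was 7. Rpl39l and Taf7l held 17 each and Tuba3b held 16, numbers that 31.4% and 33.0% of start regions reached. Rhox5 held 5, reached by 62.0%. The motif GCGGGAA, which the repressor E2F6 is known to bind, was sought on both strands and occurred once in Tuba3b and in none of the other 4, against 4.60% of all start regions. The motif CACGTG, the E-box of MAX and MGA, is its own reverse complement and occurred once in Taf7l and in none of the other 4, against 7.15% of all. A match is a description of these letters, and no methylation was measured.

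Germ cell transcripts were detected in only some members, and a cell without such UMIs may still hold the transcripts. After each cell was thinned to 3000 UMIs, 46.5% (exact 95% interval 31.2% to 62.3%) and 30.8% (17.0% to 47.6%) of Dnmt1 CKO members held at least 2 UMIs of the germ cell list. The share was 0% in both wild type libraries, where 3 cells would be 6.25% and 4.35% of those used. Without thinning the shares were 81.4% and 43.6% in Dnmt1 CKO and 0% and 2.90% in wild type. A Dazl UMI was found in 23.3% (11.8% to 38.6%) and 23.1% (11.1% to 39.3%) of thinned Dnmt1 CKO members and in 0% of wild type members. In the other gated cells of the Dnmt1 CKO libraries the Dazl share was 51.0% and 47.6%, and the intervals did not overlap those of the members. Free RNA in droplets can add UMIs to cells that do not express a gene. In the same libraries Epcam-positive, Cdh5-positive and Ptprc-positive cells held a Dazl UMI in 3.56% to 7.38% of cells, below the members' share. By level, the difference between the Dazl change in members and that in the other gated cells did not pass the test (-1.05 on the log2 scale, SE 4.19, edgeR adjusted p = 1), a comparison that the 0 UMIs in wild type members leave very imprecise.

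**Figure D3:**
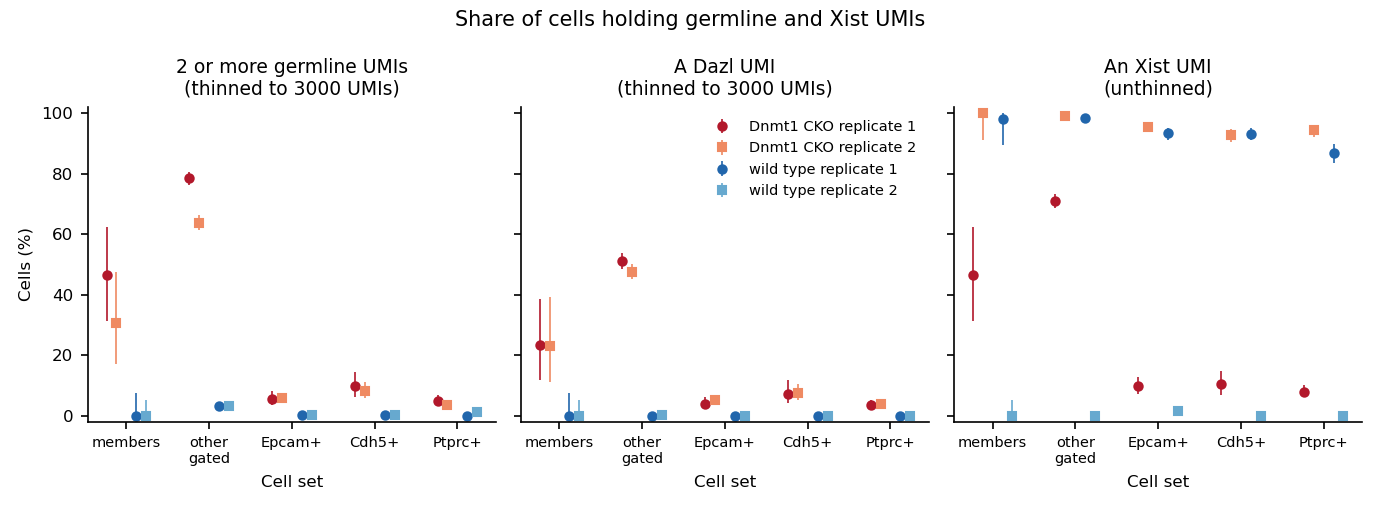
Percentage of cells (vertical axes) with at least 2 germ cell list UMIs, with a Dazl UMI, and with an Xist UMI, in members, other gated mesenchymal cells, and Epcam-positive, Cdh5-positive and Ptprc-positive cells (horizontal axes) of each library. Bars are exact binomial 95% intervals. In Dnmt1 CKO the members stood between the other gated cells and the 3 background classes for all 3 measures in replicate 1, and for the germ cell measures in replicate 2.

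Xist was present in members of the Y-carrying mutant library. There 20 of 43 members held an Xist UMI (46.5%, exact 95% interval 31.2% to 62.3%), and 18 of these also held a Y-linked UMI. The level was 757 CPM, and in the Y-carrying wild type replicate 2 it was 0 UMIs in 69 members, where the exact 95% upper limit of the share of cells with a UMI is 5.21%. The other gated cells of Dnmt1 CKO replicate 1 held Xist in 70.9% of cells and its Epcam-positive, Cdh5-positive and Ptprc-positive cells in 9.73%, 10.4% and 7.87%. In the libraries without Y-linked transcripts, 39 of 39 Dnmt1 CKO members and 49 of 50 wild type members held Xist, at 2291 and 1264 CPM. The Y-carrying library is a single sample, so no test over samples is possible. The Xist start region, drawn as above, held 15 CG, reached by 34.6% of start regions.
Xist, chrX:103483184-103483483, minus strand: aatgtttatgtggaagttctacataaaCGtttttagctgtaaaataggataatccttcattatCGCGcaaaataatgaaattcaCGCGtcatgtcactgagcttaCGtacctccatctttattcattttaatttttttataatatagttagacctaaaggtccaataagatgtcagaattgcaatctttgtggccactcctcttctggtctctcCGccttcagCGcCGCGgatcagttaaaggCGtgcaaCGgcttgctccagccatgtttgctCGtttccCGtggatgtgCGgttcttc

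Dnmt1 CKO members were also split by whether they held at least 2 germ cell list UMIs, unthinned. Among the 35 positive and 8 negative members of replicate 1, Xist was at 873 CPM in the positive cells and 83.2 CPM in the negative cells. In replicate 2, with 17 positive and 22 negative members, it was at 3418 and 1286 CPM. The 28 further adventitial markers summed to 6839 CPM in positive against 5922 CPM in negative members of replicate 1, and to 6565 against 9534 CPM in replicate 2. The order thus differed between the libraries. These are descriptions of cells within a library.

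Chemokine genes were called but came from few cells. Cxcl10, an interferon-induced attractant of T cells, had 48 and 9 UMIs in Dnmt1 CKO members and 1 and 0 in wild type members (97.7 and 31.9 CPM in Dnmt1 CKO, 2.54 and 0 CPM in wild type). It lay in 4 and 2 Dnmt1 CKO members, and the highest cell held 32 of the 48 and 8 of the 9. The pooled ratio was 80.4 with a counting interval of 13.9 to 3231 (log2 fold change 3.74, SE 0.593, edgeR adjusted p = 0.0448). Ccl2, an attractant of monocytes, had 70 and 25 UMIs in 6 and 5 Dnmt1 CKO members, against 7 and 1 UMIs in 2 and 1 wild type members (log2 fold change 3.29, SE 0.534, edgeR adjusted p = 0.0486). The highest cell held 38 of the 70 and 21 of the 25. The Cxcl10 call was lost with at least 2 rule genes and with equal cells per library, and the Ccl2 call with DESeq2 and with equal cells. With at least 4 rule genes and with the rule on thinned cells, both genes fell below the low-count filter and so had no call. Cxcl10 also fell below it without Dnmt1 CKO replicate 1. Both calls were also lost without wild type replicate 2. In the positive and negative members of the germ cell split, Ccl2 was at 59.6 and 624 CPM in replicate 1 and at 15.02 and 154 CPM in replicate 2. The negative members held 45 UMIs in 2 cells and 23 UMIs in 3 cells. The highest cell of each library was among them, so their higher level rested mostly on 1 cell a library. Cxcl10 was the only called gene among the 5 tested of 26 interferon response genes. Ccl2 was the only called gene among the 12 tested of 22 chemokine and cytokine genes, where 0.287% of all tested genes were called upward. Both genes passed the low-count filter through their level in Dnmt1 CKO, so nothing is read from the number called. Ifitm3, a membrane restriction factor, was at 631 and 967 CPM in Dnmt1 CKO and 745 and 723 CPM in wild type. Bst2, which tethers budding virus, was at 46.8 and 163 CPM in Dnmt1 CKO and 27.98 and 45.8 CPM in wild type, with a log2 fold change of 1.35 (edgeR adjusted p = 0.513).

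Rps4l and Lum changed in many members. Rps4l, a paralogue of a small-subunit ribosomal protein, had 217 and 92 UMIs in Dnmt1 CKO and 38 and 68 in wild type, or 442 and 326 CPM in Dnmt1 CKO against 96.6 and 97.4 CPM in wild type. A UMI was found in 40 of 43 and 32 of 39 Dnmt1 CKO members and in 18 of 50 and 31 of 69 wild type members. Its change was 1.93 on the log2 scale (SE 0.245, adjusted p = 0.0158 by edgeR), and its reads too may be shared with paralogues. Lum, the collagen-binding proteoglycan lumican, was at 747 and 545 CPM in Dnmt1 CKO and 237 and 202 CPM in wild type. It was seen in 33 of 43 and 24 of 39 Dnmt1 CKO members, against 21 of 50 and 14 of 69 wild type members (log2 fold change 1.53, SE 0.243, edgeR adjusted p = 0.0448). Its call was lost with sex as a covariate, with at least 4 rule genes, with the rule applied to thinned cells and with equal cells per library. The calls of Lum and Rps4l were both lost without wild type replicate 2. Dcn, the related proteoglycan decorin, was at 3500 and 2581 CPM in Dnmt1 CKO and 1445 and 1380 CPM in wild type, but did not pass (log2 fold change 1.09, edgeR adjusted p = 0.107), although DESeq2 called it (adjusted p = 0.0202). Postn, the matrix protein periostin, was at 1634 and 1169 CPM in Dnmt1 CKO and 552 and 823 CPM in wild type and did not pass either (1.00, adjusted p = 0.306 by edgeR).

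Lamc3, the gamma-3 chain of laminins, was the only gene called downward, as 0.0169% of tested genes were. It had 1 and 2 UMIs in Dnmt1 CKO members and 22 and 37 in wild type members, or 2.03 and 7.08 CPM in Dnmt1 CKO against 56.0 and 52.97 CPM in wild type. The pooled ratio was 0.0717 (counting interval 0.0144 to 0.220), and the fitted change was -2.85 on the log2 scale (SE 0.443, adjusted p = 0.0448 by edgeR). In wild type it lay in 9 of 50 and 15 of 69 members, with at most 8 UMIs in a cell. The call was lost with DESeq2, without Dnmt1 CKO replicate 1 and without wild type replicate 2. It was also lost with at least 2 rule genes, with the rule on thinned cells and with equal cells per library. With at least 4 rule genes and with a collagen gate of 1%, Lamc3 fell below the low-count filter. The remaining calls were the haemoglobin genes Hbb-bt, Hbb-bs, Hba-a1 and Hba-a2, Fxyd5 and the unnamed models Gm12840, Gm4316 and Gm45155, of which the last 4 were noted after their values were seen. Fxyd5, a subunit that modulates the sodium pump, had 26 and 13 UMIs in Dnmt1 CKO and 2 and 4 in wild type. In the other gated cells the 5 erythroid markers summed to 6919 and 4873 CPM in Dnmt1 CKO and 4347 and 828 CPM in wild type, and the part of red cell RNA in the other calls was not tested. When cells over 1% haemoglobin were left out, an alternative chosen after seeing the data, 31 genes were called. They included the 10 named ones and 0 haemoglobin genes.

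Lists of the genes that adventitial fibroblasts are known for gave no call beyond these by edgeR. DESeq2 also called 0 genes of the further adventitial, collagen, elastic-fibre, insulin-like growth factor, angiotensin, DNA methylation and cell cycle lists. Of the 23 tested of 28 further adventitial markers 0 were called by edgeR, 3 had an unadjusted p under 0.05, all with higher values in Dnmt1 CKO, as 4.21% of all tested genes had, and the median log2 fold change was 0.04. Cd248, the stromal protein endosialin, was at 252 and 177 CPM in Dnmt1 CKO and 148 and 112 CPM in wild type (0.72, adjusted p = 0.474 by edgeR). Of 21 tested of 24 collagen genes and collagen-processing enzymes 0 were called and 4 had an unadjusted p under 0.05, 1 with higher and 3 with lower values in Dnmt1 CKO, against 9.47% of all tested genes. Their median was -0.19. Of 18 tested of 20 elastic-fibre genes 0 were called and 3 had an unadjusted p under 0.05, 1 with higher and 2 with lower values in Dnmt1 CKO, against the same 9.47%. Eln, tropoelastin, was at 3886 and 7723 CPM in Dnmt1 CKO and 9611 and 9861 CPM in wild type (-0.75, adjusted p = 0.513 by edgeR). Lox, which cross-links elastin and collagen, was at 673 and 1324 CPM in Dnmt1 CKO and 1607 and 2006 CPM in wild type (-0.86, adjusted p = 0.499 by edgeR). Both Dnmt1 CKO values lay under both wild type values for Eln and for Lox, as for 19.4% of all tested genes.

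Insulin-like growth factor genes had a median of -0.60 over the 11 tested of 12, with 0 called. In this list 4 genes had an unadjusted p under 0.05, all with lower values in Dnmt1 CKO, as 5.26% of all tested genes had. Igfbp2 was at 183 and 308 CPM in Dnmt1 CKO and 557 and 457 CPM in wild type (-1.06, adjusted p = 0.328 by edgeR). In the angiotensin and kinin list 4 of 14 genes were tested and 0 called, and the 3 with an unadjusted p under 0.05 all had lower values in Dnmt1 CKO, against the same 5.26%. Mme, the membrane peptidase neprilysin, was at 6.10 and 17.7 CPM in Dnmt1 CKO and 33.1 and 73.02 CPM in wild type (-1.98, adjusted p = 0.276 by edgeR). Imprinted genes, whose allelic expression depends on methylation, gave 0 calls in 20 tested of 35, with 7 at an unadjusted p under 0.05, 3 with higher and 4 with lower values in Dnmt1 CKO, against 9.47% of all tested genes. The noncoding H19 was at 2022 and 1558 CPM in Dnmt1 CKO and 537 and 810 CPM in wild type (1.38, adjusted p = 0.0903 by edgeR, and 0.00278 by DESeq2, which called it). Meg3, the noncoding RNA of the Dlk1 locus, was at 6163 and 7334 CPM in Dnmt1 CKO and 5649 and 5478 CPM in wild type (0.27, adjusted p = 0.705 by edgeR). Among the DNA methylation enzymes and readers 12 of 18 were tested, 0 were called and 1 had an unadjusted p under 0.05.

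Markers of matrix fibroblasts, the alveolar neighbours of these cells, were low in members, with smaller sums in Dnmt1 CKO. The 14 genes summed to 1001 and 1307 CPM in Dnmt1 CKO members and 2192 and 2452 CPM in wild type members. Of 11 tested, 0 were called, and 9 had an unadjusted p under 0.05, all lower in Dnmt1 CKO, as 5.26% of all tested genes were. The median log2 fold change was -0.996. Limch1, an actin-binding protein, was at 89.5 and 159 CPM in Dnmt1 CKO and 366 and 472 CPM in wild type (-1.77, edgeR adjusted p = 0.0727), and DESeq2 called it (adjusted p = 0.00293). Tcf21, a mesenchymal transcription factor, was at 140 and 220 CPM in Dnmt1 CKO and 285 and 352 CPM in wild type (-0.85, adjusted p = 0.431 by edgeR). In the other gated cells the same sum was 3258 and 3893 CPM in Dnmt1 CKO and 8290 and 10221 CPM in wild type, and for 0 of the 14 genes did the change differ between the cell sets by edgeR at an adjusted p under 0.05. Transcripts shed by neighbouring cells and transcripts of the members themselves cannot be told apart in these sums, and their part in the result was not tested.

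Few members held proliferation transcripts. After thinning to 3000 UMIs, a Mki67 or Top2a UMI was found in 4 of 43 and 3 of 39 Dnmt1 CKO members (9.30% and 7.69%) and in 10.4% and 4.35% of wild type members, so the groups overlapped. Of 13 tested genes of the G2 and M phases of the cell cycle 0 were called by edgeR and 1 had an unadjusted p under 0.05, and of 6 tested S phase genes 0 and 0. The difference between cell sets was tested as well. Of 22 G2 and M genes 5 were called, all with a more negative change in members, against 0.636% of all genes tested. Of 20 S phase genes 0 were called. The G2 and M genes summed to 816 and 680 CPM in Dnmt1 CKO members and 796 and 617 CPM in wild type members. In the other gated cells they summed to 744 and 545 CPM in Dnmt1 CKO and 350 and 152 CPM in wild type. The Top2a change in members minus that in other gated cells was -1.81 on the log2 scale (edgeR adjusted p = 2.68e-05). Top2a was at 104 and 95.6 CPM in Dnmt1 CKO members and 89.0 and 107 CPM in wild type members, and at 108 and 66.9 CPM in Dnmt1 CKO and 34.1 and 18.8 CPM in wild type among the other gated cells.

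The difference between the change in members and that in the other gated cells was tested gene by gene, with each library as a block. Of 13840 genes tested, 145 were called (1.05%), 57 with a more positive change in members (0.412%) and 88 with a more negative one (0.636%). For 120 of them a change could be fitted in both cell sets. The change was the larger in the other gated cells for 93 and in members for 27, and it ran in opposite directions for 68. Without wild type replicate 2 the count was 73, and DESeq2 called 31. For 7781 of the 13840 genes DESeq2 gave no adjusted p, so its 31 calls came from fewer genes. Gpx3, a secreted glutathione peroxidase, was at 77.3 and 127 CPM in Dnmt1 CKO members and 48.3 and 80.2 CPM in wild type members, whereas other gated cells held 72.0 and 134 CPM in Dnmt1 CKO and 646 and 477 CPM in wild type. The difference between the changes was 3.04 (SE 0.295, edgeR adjusted p = 4.13e-12). Hhip, an inhibitor of hedgehog ligands, was at 59.0 and 110 CPM in Dnmt1 CKO members and 48.3 and 32.9 CPM in wild type members. In other gated cells it was at 165 and 276 CPM in Dnmt1 CKO and 636 and 736 CPM in wild type (difference 2.74, SE 0.310, adjusted p = 1.39e-09 by edgeR). The Gpx3 call held under every alternative run, and that of Hhip was lost only with at least 2 rule genes. The Dnmt1 CKO values of both genes were far below wild type in the other gated cells and not in members. The other gated cells pool several mesenchymal types, and some of their marker sums differed between groups. Matrix fibroblast markers summed there to 3258 and 3893 CPM in Dnmt1 CKO and 8290 and 10221 CPM in wild type. A changed mix of types and a change within cells cannot be told apart in these differences, those of Top2a and the G2 and M genes included. Neither was tested.

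The reverse was seen for genes whose level in the other gated cells was higher in Dnmt1 CKO. Ly86, a secreted partner of the receptor Cd180, was at 79.4 and 103 CPM in Dnmt1 CKO members and 68.7 and 73.0 CPM in wild type members, while other gated cells held 121.5 and 151 CPM in Dnmt1 CKO and 23.1 and 16.7 CPM in wild type (-2.45, edgeR adjusted p = 9.00e-09). C3, the central complement component, was at 42.7 and 67.3 CPM in Dnmt1 CKO members and 38.1 and 22.9 CPM in wild type members, while other gated cells held 52.4 and 123 CPM in Dnmt1 CKO and 4.73 and 9.37 CPM in wild type (-2.51, edgeR adjusted p = 5.86e-05). Genes that mark members in wild type were in this group too. Dlk1 differed by -1.50 (edgeR adjusted p = 5.5e-09), Ptn by -1.55 (adjusted p = 9e-09 by edgeR) and Cd34 by -1.40 (edgeR adjusted p = 0.000102). Their levels in members did not pass the test between genotypes. Dlk1 and Ptn were chosen by a high ratio of members to other gated cells in these same wild type libraries. Cd34 was chosen after its values were seen. Such a choice favours a negative difference, so nothing is read from these p-values. In the other gated cells Dlk1 was at 488 and 448 CPM in Dnmt1 CKO and 132 and 128 CPM in wild type, and Ptn at 466 and 493 CPM in Dnmt1 CKO and 104 and 81.9 CPM in wild type. Barcodes with 1 or 2 rule genes count among the other gated cells. Against cells with 0 rule genes alone, 167 genes were called, 132 of them among the 145.

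**Figure D4:**
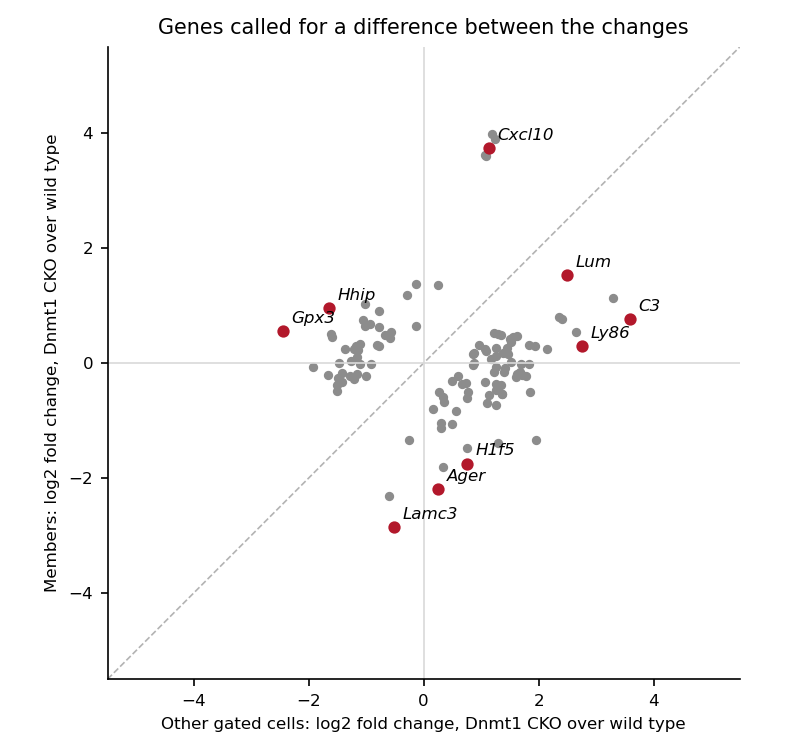
Log2 fold change of Dnmt1 CKO over wild type in members (vertical axis) against the same in other gated mesenchymal cells (horizontal axis), for the 120 genes called for a difference between the changes with a value in both. The dashed line marks equal changes, red points are genes named in the text, and the unlabelled points beside Cxcl10 are haemoglobin genes. For 93 genes the change was the larger in the other gated cells, and for 27 in members.

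Lum, Lamc3 and Cxcl10, called within members, also differed from the other gated cells. Lum was higher in Dnmt1 CKO in both sets, from a lower level in the other gated cells (133 and 145 CPM in Dnmt1 CKO, 26.7 and 21.8 CPM in wild type), and the difference was -0.93 (SE 0.215, edgeR adjusted p = 0.00789). Lamc3 differed by -3.10 (SE 0.718, edgeR adjusted p = 0.00774), with 6.94 and 13.0 CPM in Dnmt1 CKO and 16.5 and 11.8 CPM in wild type among other gated cells. Cxcl10 differed by 4.30 (SE 0.900, edgeR adjusted p = 0.00209), with 16.5 and 16.7 CPM in Dnmt1 CKO and 12.1 and 2.65 CPM in wild type among other gated cells. It rested on the few cells described above. The difference for Cxcl10 did not pass when Dnmt1 CKO replicate 1 was left out (3.20, edgeR adjusted p = 0.276), nor when wild type replicate 1 was (5.04, edgeR adjusted p = 0.122). Lamc3 likewise did not pass with Dnmt1 CKO replicate 1 omitted (-2.82, edgeR adjusted p = 0.0842), nor with wild type replicate 2 omitted (-2.85, edgeR adjusted p = 0.131). The one for Lum did not pass without Dnmt1 CKO replicate 2 (-0.70, adjusted p = 0.190 by edgeR) or wild type replicate 2 (-0.86, adjusted p = 0.234 by edgeR). With DESeq2 none of the 3 passed (adjusted p = 0.246 for Lum, 0.203 for Lamc3 and 0.215 for Cxcl10). By edgeR none of the 3 passed with at least 2 or at least 4 rule genes or with the rule on thinned cells, nor did Lum and Lamc3 with a collagen gate of 1%. For Rps4l, Rhox5, Ccl2 and the 4 germ cell genes the difference did not pass the test. The differences for Rpl39l, Tuba3b and Taf7l could hardly be estimated, since both cell sets held 0 UMIs in wild type.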

How the data were processed

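Single-cell RNA libraries (10x Chromium 3' v3, per the labels' protocols) were made from E18.5 lung, 2 of them labelled Dnmt1 CKO and 2 wild type. The authors deposited raw UMI counts per gene and barcode. Per the submitters' processing notes, bcl2fastq 2.20, Cell Ranger 3.1.0, GRCm38.p6 and Seurat were used. Lungs were digested with collagenase, DNase and dispase and red cells lysed, per the labels' protocols. Libraries held 48213065 to 56760219 UMIs in 6284 to 7820 barcodes.

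Members were chosen by the rule in the text, and their counts were summed per library, since cells are not replicates. edgeR 4.0.16 (TMM, filterByExpr, prior count 2) tested Dnmt1 CKO against wild type, and a difference between cell sets with library as block, with Benjamini-Hochberg adjustment over all genes. Each SE beside an edgeR value is the size of the log2 fold change divided by the square root of the test's F statistic. That fold change was shrunk by the prior count, and the SE was not fitted itself. It can understate the uncertainty of genes with few or 0 UMIs in a group. The script was tested on simulated data. DESeq2 1.42.0, RLE scaling, no filter, other rules and left-out libraries were alternatives. With 2 libraries against 2 an exact permutation test cannot go below 0.333. Intervals are exact binomial or conditional and cover counting error only. CPM are per 1000000 UMIs of the summed cells.

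The members and the gene lists were chosen with earlier results of these data known. Named genes were Dnmt1, the rule's genes, up to 12 rises and 12 falls among called genes whose groups did not overlap, with log2 CPM averaging 5 or more, and the 6 largest differences between cell sets in each direction. Unnamed models, sex-linked and haemoglobin genes were left out of these. Up to 4 genes of each list with the smallest adjusted p and the 15 most enriched in wild type members were added. Cd34, Dpt, Ifitm3, Meg3, Top2a, Fxyd5 and the uncalled germ cell genes fall outside this rule and were chosen after their values were seen. Gene positions are from GENCODE M21.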

Additional observations from a re-analysis of the deposited data

Results flagged for a closer look

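The change between Dnmt1 CKO and wild type differed between members and the other gated mesenchymal cells for the 12 genes below, by edgeR's test of that difference on the log2 scale. Gpx3 and Hhip, described above, differed by 3.04 and 2.74, and C3 and Ly86 by -2.51 and -2.45. The remaining positive differences, with a change more positive in members, were these. Asz1, a germ cell piRNA pathway protein, differed by 5.09 (SE 1.29, edgeR adjusted p = 0.0222), with 10.2 and 7.08 CPM in Dnmt1 CKO and 0 and 0 CPM in wild type among members and 36.2 and 33.6 CPM in Dnmt1 CKO and 52.5 and 45.0 CPM in wild type among other gated cells. Agt, angiotensinogen, differed by 4.02 (SE 0.853, edgeR adjusted p = 0.00243), with 14.2 and 10.6 CPM in Dnmt1 CKO and 5.09 and 0 CPM in wild type among members and 31.5 and 52.2 CPM in Dnmt1 CKO and 128 and 92.3 CPM in wild type among other gated cells. Pdlim3, a muscle Z-disc protein, differed by 3.44 (SE 0.852, edgeR adjusted p = 0.0167), with 12.2 and 14.2 CPM in Dnmt1 CKO and 5.09 and 0 CPM in wild type among members and 39.5 and 55.9 CPM in Dnmt1 CKO and 98.0 and 73.1 CPM in wild type among other gated cells. Actg2, a smooth muscle actin, differed by 2.94 (SE 0.674, edgeR adjusted p = 0.007), with 44.8 and 10.6 CPM in Dnmt1 CKO and 2.54 and 2.86 CPM in wild type among members and 91.7 and 109 CPM in Dnmt1 CKO and 98.0 and 59.7 CPM in wild type among other gated cells. In members each of these genes had few UMIs, and the values in wild type members were near or at 0.

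The remaining negative differences had a change more negative in members. Wif1, a secreted WNT inhibitor, differed by -3.33 (SE 0.853, edgeR adjusted p = 0.023), with 2.03 and 3.54 CPM in Dnmt1 CKO and 17.8 and 50.1 CPM in wild type among members and 41.0 and 41.0 CPM in Dnmt1 CKO and 112 and 25.6 CPM in wild type among other gated cells. Nnat, an imprinted membrane protein, differed by -2.61 (SE 0.450, edgeR adjusted p = 5.89e-05), with 14.2 and 10.6 CPM in Dnmt1 CKO and 68.7 and 12.9 CPM in wild type among members and 359 and 294 CPM in Dnmt1 CKO and 228 and 79.6 CPM in wild type among other gated cells. Ager, a marker of alveolar type 1 cells, differed by -2.29 (SE 0.465, edgeR adjusted p = 0.00132), with 14.2 and 21.2 CPM in Dnmt1 CKO and 165 and 27.2 CPM in wild type among members and 22.0 and 42.8 CPM in Dnmt1 CKO and 33.2 and 20.6 CPM in wild type among other gated cells, and 58 of its 65 UMIs in wild type replicate 1 members came from 1 cell. H1f5, a linker histone, differed by -2.29 (SE 0.403, edgeR adjusted p = 8.91e-05), with 81.4 and 14.2 CPM in Dnmt1 CKO and 33.1 and 305 CPM in wild type among members and 50.6 and 26.2 CPM in Dnmt1 CKO and 24.9 and 20.1 CPM in wild type among other gated cells, and 126 and 86 of its 213 UMIs in wild type replicate 2 members came from 2 cells. Without Dnmt1 CKO replicate 1 the differences for Asz1 (4.71), Agt (3.28), Pdlim3 (3.23), Actg2 (1.22) and Wif1 (-2.97) no longer passed. Without wild type replicate 1 those for Asz1 (5.05), Actg2 (2.55), Nnat (-2.10) and Ager (-1.23) did not pass. Without wild type replicate 2 those for Asz1 (5.20), Agt (3.03), Pdlim3 (2.42), Wif1 (-1.12) and H1f5 (-0.02) did not pass. DESeq2 called 5 of the 12, and those for Asz1 (adjusted p = 0.194), Agt (0.128), Pdlim3 (0.245), Actg2 (0.439), Wif1 (1), Ager (0.246) and H1f5 (1) did not pass by it. With at least 2 rule genes 9 of the 12 did not pass by edgeR, those 7 with Hhip (adjusted p = 0.276) and Nnat (adjusted p = 0.466). By edgeR, Asz1, Pdlim3, Wif1, C3 and H1f5 did not pass with the collagen gate of 1%, and Asz1, Agt, Pdlim3, Actg2 and Ager did not pass with at least 4 rule genes. With the rule on thinned cells Gpx3, Hhip, Nnat and Ly86 passed and the other 8 did not.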

How the results depend on the processing

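The 18 calls in members became 154 with no low-count filter, 2 with at least 4 rule genes, 57 with at least 2, 11 with the rule on cells thinned to 3000 UMIs, 9 with equal cells per library and 31 without haemoglobin-rich cells (an alternative chosen after seeing the data). Leaving out each library in turn gave 0 to 266. Of the 10 named genes, 2 stayed called with at least 4 rule genes, 5 with the thinned rule, 5 with equal cells, and 0 to 10 when a library was left out. The 11 calls among list genes became 47 with no filter, 0 with at least 4 rule genes, 19 with at least 2, 6 with equal cells, and 0 to 72 when a library was left out.

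The log2 ratio of mean Dnmt1 CPM was -1.58, and it was -0.99 with at least 2 rule genes, -1.88 with a collagen gate of 1%, -2.65 with the thinned rule, and -1.74 to -1.40 when a library was left out. A fit with no filter gave -1.17. With at least 4 rule genes Dnmt1 CKO members held 0 UMIs, and the RLE, DESeq2, block and sex fits gave no Dnmt1 value because it was below the filter. The 145 genes whose change differed between the cell sets became 31 with DESeq2, 54 with at least 4 rule genes, 48 with the collagen gate, 63 with the thinned rule, and 73 to 209 when a library was left out.

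The members' share of gated cells differed by -1.61 percentage points, Dnmt1 CKO minus wild type, and by -1.06 with at least 4 rule genes, -0.38 with at least 2, -4.11 with the collagen gate and -1.08 with the thinned rule. The share with 2 or more germ cell UMIs differed by 38.6 points, and by 61.0 in unthinned cells. The share with a Mki67 or Top2a UMI differed by 1.12 points, by 4.81 with at least 2 rule genes, and by -1.77 after thinning to 2000 UMIs. For single genes the difference between cell sets reversed for Cxcl10 with at least 4 rule genes (-0.78), Wif1 with the collagen gate (0.26) and H1f5 with the thinned rule (1.39), each with an edgeR adjusted p of 1. The cause of these shifts was not tested. With the replicate number as a block 25 genes were called, 16 of them among the 18. Same-numbered libraries hardly deviated together (r = 0.082 across 5914 genes, which are not independent). With 2 libraries a group this is a single value, and same-numbered libraries differed in sex. It cannot tell whether they share more than a number, and the labels do not say.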

Other observations

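In the same split of Dnmt1 CKO members by germ cell UMIs, Lum was at 804 CPM in positive and 416 CPM in negative members of replicate 1, and at 653 and 449 CPM in replicate 2. Rps4l was at 496 CPM in positive and 125 CPM in negative members of replicate 1, and at 443 and 221 CPM in replicate 2. Rhox5, not on the list that made the split, was at 148 and 83.2 CPM in replicate 1 and at 225 and 6.70 CPM in replicate 2. For all 3 genes the positive members were the higher ones in both libraries. Cells were split by their own UMIs, deeper cells are more often positive, and no test was made.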
